A study of Mus musculus with 9 samples.

Results

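This account covers 10 genes of the nuclear lamina and nuclear envelope, *Lmna*, *Lmnb1*, *Lmnb2*, *Lbr*, *Emd*, *Tmpo*, *Sun1*, *Sun2*, *Syne1* and *Syne2*, out of 55228 genes in an RNA-seq count table of HC11 cells. The genes were taken by name and not by their values, though with earlier results of these data known. All 10 were expressed highly enough to be tested. HC11 cells are a line of mouse mammary epithelium, and 9 cultures were sequenced, 3 each of the parental line (*WT*) and of 2 *Vangl2* *KD* lines that the sample labels call knockouts. *KD1* and *KD2* were each grown up from a single colony after nucleofection with Cas9, 1 guide against *Vangl2* and a repair template carrying stop codons, so each line is 1 clone and clone and edit cannot be told apart, while the methods name no cloning step for *WT*. Cultures were undifferentiated, 90% confluent, and kept in RPMI-1640 to which insulin (5 µg/mL), EGF (10 ng/mL) and 10% FBS had been added, with no further treatment of any group.

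The inner face of the nuclear envelope is lined by a meshwork of lamin filaments, made of the A-type lamins A and C, both encoded by *Lmna*, and the B-type lamins B1 and B2. Proteins of the inner nuclear membrane such as the lamin B receptor (LBR), emerin (EMD) and the lamina-associated polypeptide 2 proteins (TMPO) tie this meshwork to chromatin. SUN proteins of the inner membrane pair across the envelope with nesprins (SYNE1 and SYNE2) of the outer membrane, and this LINC complex couples the lamina to the cytoskeleton. In mammary epithelium, as in other tissues under tension, the lamina and the LINC complex help to set nuclear shape and position and pass mechanical signals to the nucleus.

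Depth ranged from 19231428 to 28360592 counts per culture, and the 10 genes took 0.2004 to 0.2464% of them. A gene was said to rise or fall where the quasi-likelihood test of edgeR gave a Benjamini-Hochberg adjusted p under 0.05 over 15253 genes. *Vangl2* itself was at 3.38, 3.96 and 4.20 CPM in *WT* (counts scaled to the size of the library), at 2.77, 1.89 and 2.78 CPM in *KD1* and at 3.64, 3.93 and 4.43 CPM in *KD2*. It fell in *KD1* (log2 fold change -0.63 ± 0.17 SE, adjusted p = 0.0058) and not in *KD2* (0.047 ± 0.162, adjusted p = 0.81). A count over the whole transcript does not read a small edit, so it does not check the label of *KD2*. For the protein, the authors report immunoblots with little or no VANGL2 in *KD1* and much less of it in *KD2*. The third culture of *KD2* stood apart from the other two, with a chi-square per degree of freedom of 17.44 and 22.09 against 1.74 between those. The first *WT* culture also differed more from the others (13.12 and 10.74) than they did from each other (3.38). The summed level of 6 mammary epithelial markers ran from 4818 to 5389 CPM in *WT*, from 5464 to 5607 CPM in *KD1* and from 2873 to 3564 CPM in *KD2*, with none at 0. Its members went both ways in *KD2*, and all but *Krt8* and *Krt18* were lower. *Krt5* was at 1088 CPM (2117 in *WT*), *Krt14* at 818.6 (1527), *Epcam* at 428.4 (551.3) and *Cdh1* at 428 (692). *Krt8* was at 267.9 (157.6) and *Krt18* at 136.2 (124.6). The fibroblast list summed to 87.67 to 97.15 CPM in *KD2*, against 13.98 to 19.84 CPM in *WT* and 8.066 to 10.11 CPM in *KD1*, mostly from *Pdgfrb*. From *WT* to *KD2*, *Pdgfra* went from 7.96 to 16.4 CPM and *Col1a2* from 1.168 to 3.093 CPM, *Col1a1* was at 7.035 and 4.377 CPM, and *Dcn* and *Lum* were at 0 in *WT* and at 0.1141 and 0.1229 CPM in *KD2*. Leukocyte, endothelial and adipocyte lists stayed at or below 8.296, 5.583 and 2.944 CPM. The part of these differences in the results was not tested.

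The promoters of the 2 SUN genes are shown because *Sun2* had the largest change of the 10 genes and *Sun1*, its paralogue, a much smaller one in the same line. The promoter windows came from RefSeq on GRCm38.p6. The search covered 15 windows of 9 of the genes, and *Lmnb1* was not included. Each stretch is the 250 bases before the annotated start, 5′ to 3′ on the strand of the gene, and the capitals mark the letters CCAAT and GGGCGG, read on either strand and allowed to overlap. For *Sun1*, which has a further window inside the gene, the one that ends at the start of the gene is printed. The *Sun1* window is chr5:139200387-139200636 on the plus strand and the *Sun2* window is chr15:79742537-79742786 on the minus strand.
Sun1: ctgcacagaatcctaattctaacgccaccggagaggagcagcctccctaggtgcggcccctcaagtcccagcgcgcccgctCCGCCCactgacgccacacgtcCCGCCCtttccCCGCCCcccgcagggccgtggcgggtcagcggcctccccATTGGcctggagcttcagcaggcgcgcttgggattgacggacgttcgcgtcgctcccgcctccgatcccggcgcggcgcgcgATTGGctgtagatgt
Sun2: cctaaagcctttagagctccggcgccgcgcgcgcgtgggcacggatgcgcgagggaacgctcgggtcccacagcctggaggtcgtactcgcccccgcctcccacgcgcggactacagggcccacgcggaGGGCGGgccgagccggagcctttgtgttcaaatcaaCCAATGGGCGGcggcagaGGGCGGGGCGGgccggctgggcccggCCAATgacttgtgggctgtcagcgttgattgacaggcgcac
CCAAT is the box that NF-Y binds and GGGCGG the core of the GC box that Sp1 binds. The printed *Sun1* window held 2 CCAAT and 3 GGGCGG matches, its other window 1 and 0, and the *Sun2* window 2 and 4. Over the 15 windows, 7 held CCAAT and 9 held GGGCGG, where 33.8% and 32.7% of 32851 RefSeq promoters of this length held them. TTCNNNGAA, the core that STAT5 recognises, was in 0 of the 15 windows and in 7.02% of all promoters. TGTGGT, the core that RUNX factors recognise, was in 2 of the 15 and in 14% of all. These matches are descriptions of letters only.

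In *WT* cells the order of levels, given as CPM per kb of exon, ran from *Lmna* at 134 ± 10.3 (SD, n = 3) to *Syne1* at 2.53 ± 0.268. *Lmnb1* followed *Lmna* at 73.8 ± 3.90. *Tmpo* at 41.3 ± 0.863 and *Emd* at 40.9 ± 1.07 overlapped, and no other neighbours in the order did. *Sun1* stood at 37.0 ± 0.856, *Lbr* at 34.1 ± 1.17 and *Sun2* at 24.5 ± 0.960 CPM per kb. The lowest of the lamins was *Lmnb2* at 15.9 ± 0.451, and the giant nesprin genes were last, with *Syne2* at 4.61 ± 0.553. In the parental cells the A-type lamin gene was thus above both B-type genes, lamin B1 was above lamin B2, and *Sun1* was above *Sun2*. The order depends on the length used, and per kb of the longest transcript *Tmpo* (102) came above *Lmnb1* (76.9). All further levels are in CPM, compared only within a gene.

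**Figure D1:**
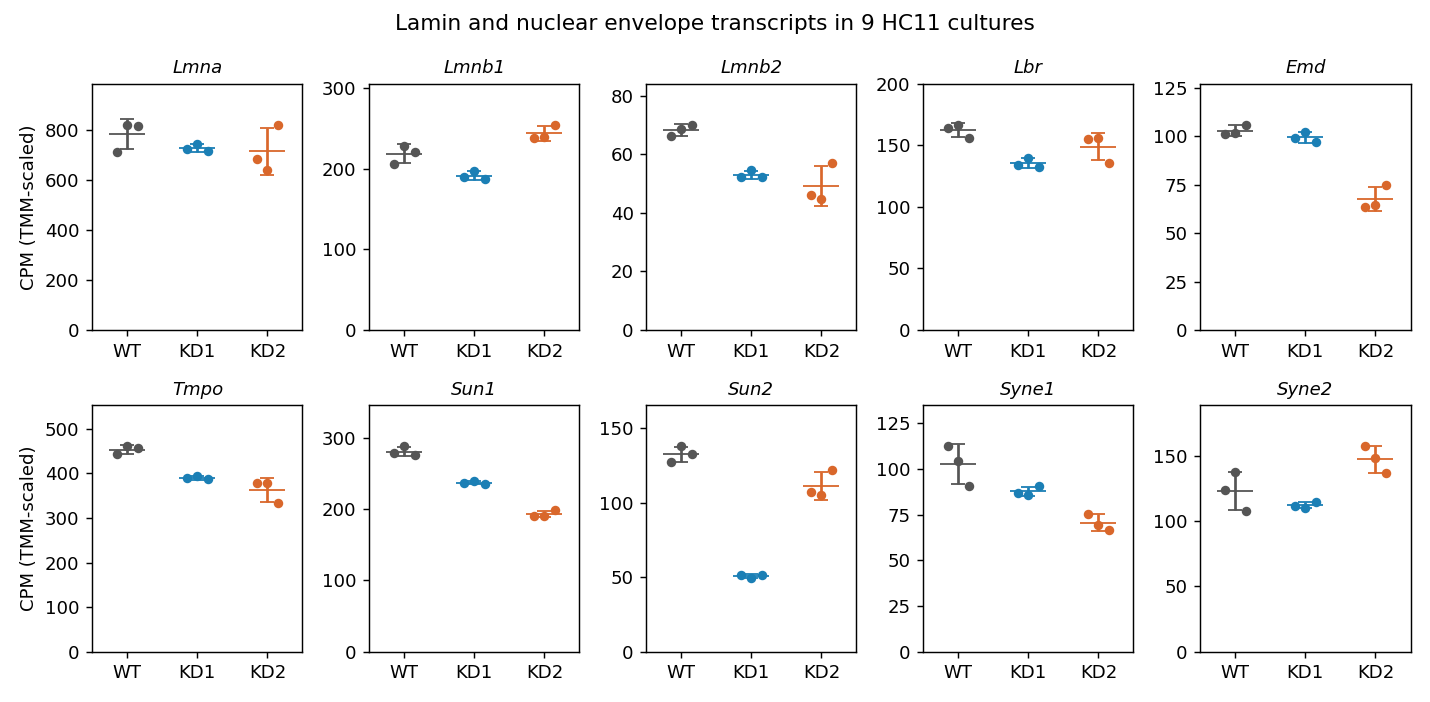
CPM (y axis, from 0, scaled by TMM) of the 10 genes in the 9 cultures, 1 panel per gene, with points for cultures and bars for the mean and SD of 3. *Sun2* in *KD1* sits at 49.35 to 51.42 CPM, far below *WT* at 127.4 to 137.8 CPM, and *Emd* is low only in *KD2*.

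Against *WT*, 0 of the 10 genes rose and 7 fell in *KD1*, where 26.9% of all tested genes were higher and 30% lower, and the groups did not overlap for 7 genes (68.8% of all tested genes). In *KD2*, 2 rose and 6 fell, where 34% of all tested genes were higher and 33.3% lower, and the groups did not overlap for 8 genes (67.9% of all). The share of the 10 that passed in either direction was therefore near that of all genes (56.9% in *KD1* and 67.2% in *KD2*), and falls outnumbered rises. The median log2 fold change of the 10 was -0.22 in *KD1* and -0.29 in *KD2*, against -0.03 and 0.01 over all genes. Most changes were small, since the median size was 0.22 in *KD1* and 0.29 in *KD2*, against 0.35 and 0.46 over all genes. Past 2-fold there was 1 gene in *KD1* (*Sun2*, against 16.8% of all genes) and 0 in *KD2* (against 21.2%). *Lmnb2*, *Tmpo*, *Sun1*, *Sun2* and *Syne1* fell in both lines. The lines share the *WT* cultures, so these are not independent counts.

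Between the lines, *KD2* exceeded *KD1* for 3 of the 10 (*Lmnb1*, *Sun2*, *Syne2*) and lay below it for 3 (*Emd*, *Sun1*, *Syne1*), against 34.8% and 33% of all tested genes and 67.8% in either direction. The groups did not overlap for 7 (71.6% of all genes), and *Sun2* alone passed 2-fold (23.3% of all genes). Without the third *KD2* culture, 2 genes rose and 7 fell in *KD2* against *WT*, where 71.2% of all tested genes passed. *KD2* then exceeded *KD1* for 4 and lay below it for 5, where 72% of all passed. Without the first *WT* culture, 6 fell in *KD1* (52.5% of all genes passed), and 1 rose and 6 fell in *KD2* (64.1%). Scaling by library size alone moved the median of all genes in *KD2* to 0.12 against *WT* and to 0.14 against *KD1*. It raised the share of higher genes among those passing from 51.3 to 61.8% in *KD2* against *KD1*.

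Among the lamins, *Lmnb2* fell in both *KD* lines, *Lmnb1* fell in *KD1* and was higher in *KD2*, and *Lmna* passed the test in neither. In GRCm38, *Lmna* occupies 88480147 to 88509956 of chromosome 3, on the minus strand. It was at 712.9, 818.7 and 815.4 CPM in *WT*, at 723.5, 744.2 and 713.8 CPM in *KD1* and at 681.2, 640.9 and 820.3 CPM in *KD2*. *WT* spanned the whole of *KD1*, and the third *KD2* culture lay above every *WT* culture while the other two lay below them all. The log2 fold change was -0.11 in *KD1* (95% interval -0.28 to 0.073, adjusted p = 0.3) and -0.13 in *KD2* (-0.31 to 0.047, adjusted p = 0.17). Without the third *KD2* culture *Lmna* passed against *WT* (-0.22, adjusted p = 0.0019) and against *KD1* (-0.13, adjusted p = 0.039). Over 17 alternatives, that adjusted p ran from 0.0019 to 0.83 against *WT* and from 0.039 to 1 against *KD1*. With all cultures and no filter on low counts it also passed against *WT* (-0.17, adjusted p = 0.034).

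*Lmnb1*, on the plus strand of chromosome 18, encodes the lamin that is lost from many senescent cells. Its levels were 206.0, 228.6 and 221.4 CPM in *WT*, with *KD1* at 189.9, 197.5 and 187.5 CPM and *KD2* at 238.1, 239.1 and 254.8 CPM. The 3 groups did not overlap, with *KD1* lowest and *KD2* highest. It fell by 0.19 ± 0.058 on the log2 scale in *KD1* (adjusted p = 0.012) and rose by 0.16 ± 0.058 in *KD2* (adjusted p = 0.027). The difference between the lines was 0.35 ± 0.058 (adjusted p = 1e-04). The fall in *KD1* did not pass without the second *WT* culture (-0.14), the third *WT* culture (-0.16), the first *KD1* culture (-0.18) or the third *KD1* culture (-0.17), and over 17 alternatives its adjusted p ran from 0.0018 to 0.098. The rise in *KD2* did not pass without the first *WT* culture (0.11) or the first *KD1* culture (0.15), with no filter on low counts (0.13) or with 6 cultures in the fit (0.16). The median gene of chromosome 18 was at -0.04 in *KD1* and at 0.23 in *KD2*, both against *WT*. Relative to it *Lmnb1* was at -0.073 in *KD2* (adjusted p = 0.28, over 17 alternatives 0.00099 to 0.28). With both medians taken out, the lines differed by 0.078 (adjusted p = 0.25, over 17 alternatives 7e-08 to 0.25). The median of *KD2* directly against *KD1* was 0.21 and was not the one taken out.

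*Lmnb2*, the other B-type lamin gene, lies on the minus strand of chromosome 10 from 80901203 to 80918245. It was at 66.28, 68.64 and 70.11 CPM in *WT*, at 52.31, 54.65 and 52.07 CPM in *KD1* and at 45.92, 44.71 and 57.06 CPM in *KD2*. Both *KD* lines lay below every *WT* culture, and the third *KD2* culture lay above all of *KD1*. The log2 fold change was -0.37 ± 0.081 in *KD1* (adjusted p = 0.0016) and -0.48 ± 0.082 in *KD2* (adjusted p = 0.00015). The lines differed by -0.11 (95% interval -0.29 to 0.066, adjusted p = 0.25), and without the third *KD2* culture by -0.22 (adjusted p = 0.0007, over 17 alternatives 7e-04 to 0.88). Its fall passed the test against *WT* in both lines under each of the 17 alternatives. The median gene of chromosome 10 was at -0.16 in *KD1* and -0.15 in *KD2*, and relative to it *Lmnb2* was at -0.21 and -0.32.

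*Lbr* encodes a receptor of the inner membrane that binds B-type lamins and also carries sterol reductase activity. It lies on the minus strand of chromosome 1, from 181815335 to 181843046, and its levels were 164.3, 166.9 and 156.2 CPM in *WT*, with *KD1* at 134.2, 140.1 and 132.2 CPM and *KD2* at 155.2, 156.0 and 136.1 CPM. *KD1* lay well below *WT*, while *KD2* was split, with 2 cultures just below the lowest *WT* culture and the third inside the range of *KD1*. The log2 fold change was -0.26 ± 0.064 in *KD1* (adjusted p = 0.003) and -0.12 ± 0.064 in *KD2* (adjusted p = 0.1). The median gene of chromosome 1 was 0.14 higher in *KD2*, and relative to it *Lbr* was at -0.26 (adjusted p = 0.0025, over 17 alternatives 0.0025 to 0.86). The lines differed by 0.14 (95% interval 0.0012 to 0.28, adjusted p = 0.069), by 0.26 with library size alone (adjusted p = 0.0019), by 0.17 under a minimum of 10 counts per culture (adjusted p = 0.028) and by 0.21 without the third *KD2* culture (adjusted p = 0.00033, over 17 alternatives 0.00033 to 0.5). Of the 50-base windows of its exons, 8.41% also occur in other genes, mainly in *Dnah14* on the other strand, which had 9 to 32 counts per culture.

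*Emd* encodes emerin, a LEM domain protein whose loss in people gives X-linked Emery-Dreifuss muscular dystrophy, and lies on the plus strand of the X chromosome from 74254687 to 74261548. Emerin transcripts were at 101.3, 101.6 and 106.1 CPM in *WT* and at 99.27, 102.2 and 96.99 CPM in *KD1*, which overlapped. In *KD2* they were at 63.70, 64.71 and 75.07 CPM, all below the other 6 cultures. *Emd* fell in *KD2* (-0.60 ± 0.068, adjusted p = 2.8e-06), was lower there than in *KD1* (-0.55 ± 0.068, adjusted p = 5.5e-06), and in *KD1* was at -0.050 against *WT* (95% interval -0.19 to 0.094, adjusted p = 0.55). The 449 tested genes of the X chromosome had a median log2 fold change of -0.63 in *KD2* and -0.09 in *KD1*. With these medians taken out, *Emd* was at 0.025 in *KD2* (adjusted p = 0.77, over 17 alternatives 1.2e-16 to 0.77) and differed between the lines by -0.018 (adjusted p = 0.83, over 17 alternatives 5.3e-15 to 0.83). The 52 tested genes within 2 Mb of *Emd* also had a median of -0.63 in *KD2*. Of its exon windows, 16.2% also occur in other genes, mainly in the pseudogene *Gm14686*, which had 0 counts in every culture.

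*Tmpo* encodes the LAP2 proteins, LEM domain proteins that include a membrane form bound to lamin B and a nucleoplasmic form bound to A-type lamins, and gene counts do not separate them. It lies on the minus strand of chromosome 10 from 91147571 to 91181315. The levels were 442.9, 460.6 and 457.6 CPM in *WT*, with *KD1* at 388.9, 394.5 and 387.2 CPM and *KD2* at 377.9, 379.3 and 332.9 CPM, and no 2 groups overlapped. *Tmpo* fell in *KD1* (-0.22 ± 0.059, adjusted p = 0.0059) and in *KD2* (-0.32 ± 0.059, adjusted p = 0.00027), and the lines differed by -0.10 (95% interval -0.23 to 0.024, adjusted p = 0.14). Relative to the median of chromosome 10 it was at -0.057 in *KD1* (adjusted p = 0.43, over 17 alternatives 6.4e-05 to 0.43) and at -0.17 in *KD2* (adjusted p = 0.023).

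The SUN genes both fell in both lines but in unlike amounts, *Sun2* strongly in *KD1* and *Sun1* more in *KD2*. *Sun1* lies on the plus strand of chromosome 5 from 139200637 to 139249840. It was at 279.3, 288.3 and 275.7 CPM in *WT*, at 236.7, 239.9 and 235.4 CPM in *KD1* and at 190.4, 191.2 and 198.9 CPM in *KD2*. The groups stepped down from *WT* to *KD1* to *KD2* without overlap. The log2 fold change was -0.24 ± 0.051 in *KD1* (adjusted p = 9e-04) and -0.54 ± 0.051 in *KD2* (adjusted p = 5e-07), and both falls passed under all 17 alternatives. The lines differed by -0.29 ± 0.051 (adjusted p = 0.00014). Chromosome 5 had a median of 0.01 in *KD1* and of -0.2 in *KD2*, both against *WT*. With these medians taken out, the difference between the lines was -0.087 (adjusted p = 0.15, over 17 alternatives 1.9e-11 to 0.15). The median of *KD2* directly against *KD1* was -0.28 and was not the one taken out.

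*Sun2* lies on the minus strand of chromosome 15 from 79724070 to 79742536. Its transcripts were at 127.4, 137.8 and 132.4 CPM in *WT*, at 51.28, 49.35 and 51.42 CPM in *KD1* and at 106.9, 104.9 and 121.9 CPM in *KD2*. *KD1* lay far below both other groups, and *KD2* lay a little below *WT*. In *KD1* it was 2.62-fold lower than in *WT* (log2 fold change -1.39 ± 0.068, adjusted p = 5.8e-10), a change larger in size than that of 87.7% of tested genes. In *KD2* it was at -0.25 ± 0.066 (adjusted p = 0.0037), so that *KD2* was 2.19-fold above *KD1* (1.13 ± 0.068, adjusted p = 3.5e-09). The fall in *KD1* and the difference between the lines passed under all 17 alternatives. The smaller fall in *KD2* did not pass with library size alone (-0.14, adjusted p = 0.073) or relative to the median of chromosome 15 (-0.084, adjusted p = 0.28, over 17 alternatives 2.5e-05 to 0.28).

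**Figure D2:**
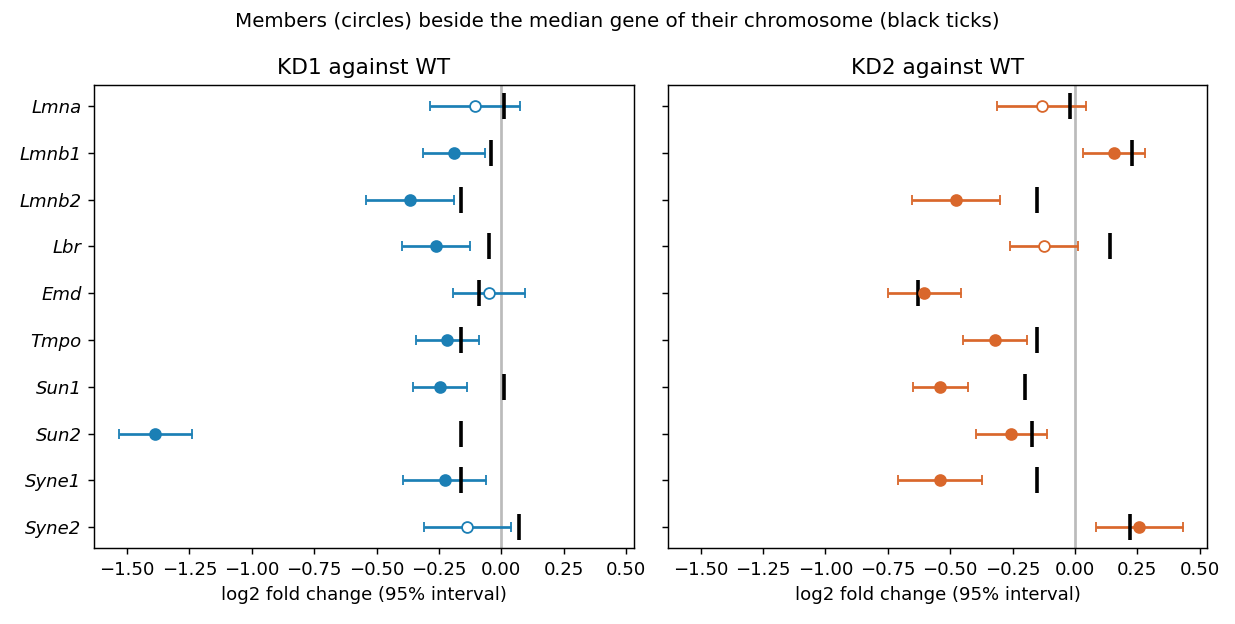
log2 fold change (x axis) of each gene against *WT* with its 95% interval, *KD1* on the left and *KD2* on the right, filled circles for adjusted p under 0.05 and black ticks for the median gene of the same chromosome. *Sun2* in *KD1* (-1.39) lies far from its tick at -0.16, while *Emd* in *KD2* (-0.60) lies on its tick at -0.63.

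The fall of *Sun2* in *KD1* was not shared by its chromosome, whose median was -0.16, or by the 71 tested genes within 2 Mb, whose median was -0.09. Relative to the median of chromosome 15 it was still -1.23 (adjusted p = 2.1e-09). The 3 nearest tested genes on each side were chosen after the value of *Sun2* was seen. All but *Tomm22* fell in *KD1*, by unlike amounts, where 30% of all tested genes were lower. *Tomm22*, of the mitochondrial import pore, was at 104.6 ± 0.880 CPM in *WT* and 105.8 ± 3.70 CPM in *KD1*, while *Josd1*, which encodes a deubiquitinase, fell there by 0.42 on the log2 scale (adjusted p = 1.2e-05) and the GTPase gene *Gtpbp1* fell by 0.23 (adjusted p = 0.0044). On the side of the *Sun2* start, the dynein light chain gene *Dnal4* fell by 0.91 (adjusted p = 2.6e-06) and the neuronal pentraxin receptor gene *Nptxr* fell by 1.95 (adjusted p = 9.3e-08) in *KD1*. In *KD2*, *Tomm22* (-0.38, adjusted p = 2.7e-05), *Josd1* (-0.81, adjusted p = 1.7e-08), *Gtpbp1* (-0.42, adjusted p = 3.5e-05) and *Dnal4* (-0.38, adjusted p = 0.0033) fell, where 33.3% of all tested genes were lower. *Nptxr* was also low there, at 1.64 ± 0.0630 CPM against 5.58 ± 0.0552 CPM in *WT*, although *Sun2* was at -0.25.

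The third gene on the side of the *Sun2* start is *Gm16576*, a long non-coding RNA. It starts within the printed *Sun2* window and runs away from *Sun2* on the plus strand. It had 79, 103 and 71 counts in *WT*, 67, 52 and 57 in *KD1* and 215, 256 and 178 in *KD2*. In CPM it was lowest in *KD1* (2.27 ± 0.216), as *Sun2* was, but highest in *KD2* (8.66 ± 0.121, against 3.88 ± 0.358 in *WT*). It fell in *KD1* (-0.77 ± 0.14, adjusted p = 0.00025) and rose in *KD2* (1.15 ± 0.12, adjusted p = 1.1e-06). *Gm16576* and *Sun2* thus changed in opposite directions in *KD2*. An antisense gene that overlaps *Sun2*, *Gm16575*, had 0 to 3 counts. The library kit named in the methods does not mark strand, so reads of genes that overlap on opposite strands cannot be told apart.

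The nesprin genes are among the longest of these transcripts and encode many isoforms, from giant actin-binding proteins to short forms without that end, which gene counts do not separate. *Syne1*, which encodes nesprin-1, lies on the minus strand of chromosome 10 from 5020917 to 5551482, and was at 112.3, 104.5 and 90.81 CPM in *WT*, at 86.86, 85.48 and 90.62 CPM in *KD1* and at 75.50, 69.51 and 66.31 CPM in *KD2*. The third *WT* culture was only just above the highest *KD1* culture, and *KD2* was below all others. *Syne1* fell in *KD1* (-0.23 ± 0.077, adjusted p = 0.023) and in *KD2* (-0.54 ± 0.078, adjusted p = 3.1e-05), and was lower in *KD2* than in *KD1* (-0.31 ± 0.078, adjusted p = 0.0026). The fall in *KD1* failed to pass without the first *WT* culture (-0.16), the second *WT* culture (-0.19), the first *KD1* culture (-0.21) or the second *KD1* culture (-0.20), under a minimum of 10 counts per culture (-0.19) and relative to chromosome 10 (-0.066), with adjusted p from 0.0069 to 0.5 over the 17 alternatives. The fall in *KD2* passed under all of them.

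*Syne2*, which encodes nesprin-2, lies on the plus strand of chromosome 12 from 75818134 to 76110926. Its levels were 124.1, 137.5 and 108.0 CPM in *WT*, with *KD1* at 111.4, 110.3 and 114.7 CPM and *KD2* at 157.3, 148.1 and 136.8 CPM. *WT* spanned the whole of *KD1* and reached just above the lowest *KD2* culture. It rose in *KD2* (0.26 ± 0.081, adjusted p = 0.012) and was at -0.14 in *KD1* (95% interval -0.31 to 0.039, adjusted p = 0.17). The lines differed by 0.39 ± 0.081 (adjusted p = 0.00062) without overlap, the opposite direction to *Syne1*. Without the first *KD2* culture the rise was 0.21 (adjusted p = 0.055), and relative to chromosome 12, whose median was 0.22, it was 0.034 (adjusted p = 0.73, over 17 alternatives 4e-04 to 0.73). In *KD1* it passed as a fall without the third *WT* culture (-0.20, adjusted p = 0.049) and relative to chromosome 12 (-0.21, adjusted p = 0.043, over 17 alternatives 0.043 to 0.8).

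Relative to the median gene of its own chromosome, 6 of the 10 fell in *KD1* (*Lmnb1*, *Lmnb2*, *Lbr*, *Sun1*, *Sun2*, *Syne2*). In *KD2*, 0 rose and 5 fell (*Lmnb2*, *Lbr*, *Tmpo*, *Sun1*, *Syne1*). Between the lines, the medians taken out were those of each line against *WT*. There *KD2* exceeded *KD1* for 2 (*Sun2*, *Syne2*) and lay below it for 1 (*Syne1*). In the same setting 55.4% of all tested genes passed in *KD1* against *WT*, 64.7% in *KD2* against *WT* and 64.9% between the lines, so these counts were near or below the share of all genes. Both rises in *KD2*, of *Lmnb1* and *Syne2*, and the falls of *Emd* and *Sun2* there did not pass in this way, and neither did the falls of *Tmpo* and *Syne1* in *KD1*. The falls of *Lmnb2*, *Tmpo*, *Sun1* and *Syne1* in *KD2*, and of *Lmnb1*, *Lmnb2*, *Lbr*, *Sun1* and *Sun2* in *KD1*, passed both ways.

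Paralogous genes were also compared within each culture, as log2 ratios of counts per kb of exon, which no scaling between cultures can move. The ratio of *Sun1* to *Sun2* was 0.60 ± 0.041 in *WT*, 1.74 ± 0.047 in *KD1* and 0.31 ± 0.085 in *KD2*, so *Sun1* exceeded *Sun2* from 1.486 to 1.564-fold in *WT* and from 3.267 to 3.469-fold in *KD1*. The ratio of *Syne1* to *Syne2* was -0.86 ± 0.13 in *WT* and -0.96 ± 0.014 in *KD1*, which overlapped, and -1.66 ± 0.024 in *KD2*, below every other culture. The ratio of *Lmna* to *Lmnb1* plus *Lmnb2* was 0.58 ± 0.048 in *WT*, 0.69 ± 0.0090 in *KD1* and 0.38 ± 0.12 in *KD2*, without overlap, and within *KD2* it ran from 0.27 to 0.50. Of 9 comparisons, all but *Syne1* to *Syne2* in *KD1* against *WT* (two-sided exact permutation p = 0.4) gave an exact p of 0.1 (adjusted p = 0.112), the smallest that 3 against 3 allows, so this test could not pass 0.05.

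**Figure D3:**
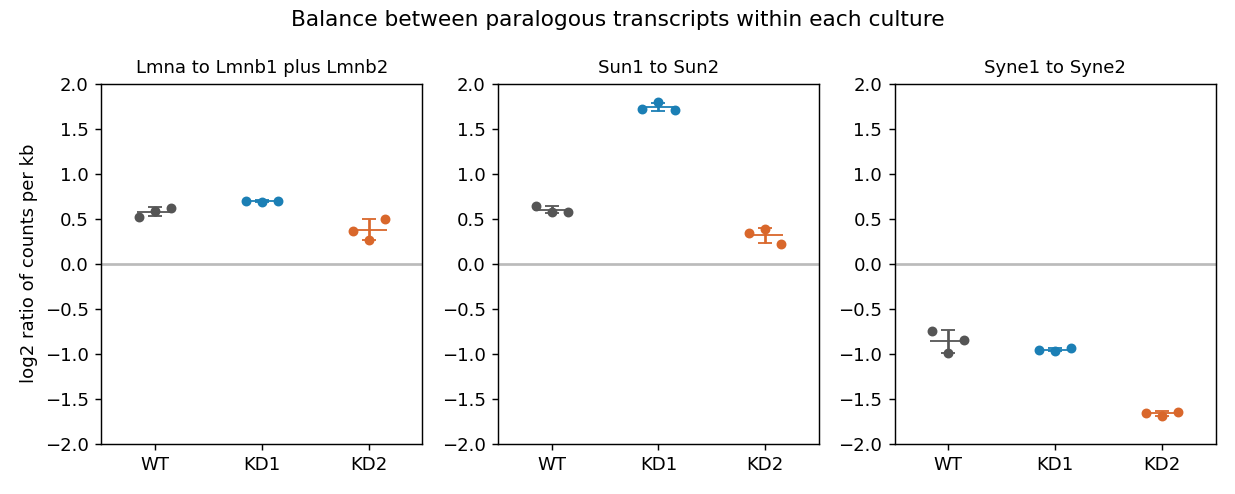
log2 ratio of counts per kb (y axis) for 3 pairs of paralogues in each culture, with points for cultures and bars for the mean and SD of 3. *Sun1* to *Sun2* is raised in *KD1* (mean 1.74, against 0.60 in *WT*) and *Syne1* to *Syne2* is lowered in *KD2* (mean -1.66, against -0.86).

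Other genes of the envelope, from lists of known roles, were read in the same way, against the 26.9% of all tested genes higher and 30% lower in *KD1* (56.9% either way) and the 34% higher and 33.3% lower in *KD2* (67.2% either way). Of 12 other proteins of the inner membrane and lamina, 1 rose and 6 fell in *KD1* (median -0.21), and 3 rose and 6 fell in *KD2* (median -0.24), so the number passing was near the share of all genes. The lowest in *KD1* was *Nrm*, which encodes nurim, a multipass protein of the inner membrane, at 29.1 ± 1.38 CPM against 52.1 ± 4.45 CPM in *WT* (-0.84, adjusted p = 4.1e-07), and the highest was *Nemp1* (0.26, adjusted p = 0.024). *Nemp1* was the 1 gene of this list that rose in *KD1*, and 0 rose without *WT* replicate 1 or 3 or *KD1* replicate 2 or 3. The lowest in *KD2* was *Banf1*, which encodes the barrier-to-autointegration factor that LEM domain proteins bind, at 81.1 ± 13.7 CPM against 158.9 ± 1.83 CPM in *WT* (-0.97, adjusted p = 4.3e-07). The highest was *Tor1aip1*, which encodes the lamina-associated polypeptide 1 that activates torsin (0.52, adjusted p = 2.9e-05). Of 7 other SUN and KASH genes, *Sun3*, *Sun5*, *Ccdc155* and *Lrmp* had at most 6 counts in a culture and were not tested. Among the 3 tested, 0 passed in *KD1* and 1 rose in *KD2*, *Spag4*, the testis SUN gene also called *Sun4*, at 3.34 ± 0.628 CPM against 1.13 ± 0.376 CPM (1.55, adjusted p = 0.00013). In *KD1*, where *Sun2* was low, *Spag4* was at -0.0026 (adjusted p = 1).

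Of 6 genes for proteins that mature or bind prelamin A, 2 rose and 2 fell in *KD1*, and 1 rose and 2 fell in *KD2* (3 and 1 with library size alone), with a median of 0.06 in both lines. Those counts too were near or below the share of all genes that passed, and without the third *KD2* culture 3 rose and 2 fell in *KD2*. *Rce1*, the CAAX endoprotease gene, was the lowest in both lines (-0.44, adjusted p = 0.00022 in *KD1*, and -0.74, adjusted p = 1.6e-06 in *KD2*). *Icmt*, which encodes the methyltransferase of the next step, was the highest in *KD1* (0.48, adjusted p = 4.8e-06), and *Narf*, which encodes a prelamin A binding protein, in *KD2* (0.39, adjusted p = 0.00034).

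The nuclear pore complex is the channel of transport through the envelope. Of its 30 genes tested (*Nupl1* had 0 counts), 6 rose and 8 fell in *KD1* although the median was 0.04, while 3 rose and 18 fell in *KD2* (median -0.3). *KD2* exceeded *KD1* for 2 and lay below it for 22, against 34.8% and 33% of all tested genes (67.8% either way). With library size alone these were 5 and 14, where 68.3% of all genes passed and 61.8% of those were higher. Against *WT*, shares compare as follows. The number passing was below the share of all genes in *KD1* and near it in *KD2*, and more fell than rose in *KD2*. In *KD1*, 3 rose without the first or second *KD1* culture, 4 without the first *WT* culture or the third *KD1* culture, and 10 without the third *KD2* culture, while 5 fell without *WT* replicate 2 or 3 or *KD1* replicate 3. In *KD1* the highest was the scaffold gene *Nup205* (0.35, adjusted p = 0.00023) and the lowest *Rae1*, an mRNA export factor (-0.76, adjusted p = 1.9e-07). In *KD2* the highest was *Gle1*, also of mRNA export (0.37, adjusted p = 8.4e-05), and the lowest *Nup153* of the nuclear basket, at 114.9 ± 11.2 CPM against 243.0 ± 12.9 CPM in *WT* (-1.08, adjusted p = 1.5e-08), on chromosome 13, whose median was -0.66. The other pore gene past 2-fold in *KD2*, *Nup54* of the central channel, was named after its value was seen (-1.07, adjusted p = 2e-09, chromosome 5 at -0.2). Relative to chromosome medians, 13 pore genes rose and 5 fell in *KD1*, and 2 rose and 21 fell in *KD2*. In that setting 55.4% of all tested genes passed in *KD1* (51.4% of those higher) and 64.7% in *KD2* (50.5% higher).

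Of 11 genes of envelope breakdown and reassembly at mitosis, 0 rose and 8 fell in *KD2* (median -0.27), while in *KD1* 5 rose and 2 fell although the median was -0.07. The number passing was near the share of all genes in both lines, and in *KD1* 3 rose without the second *KD1* culture. The lowest in *KD2* was *Chmp7*, which starts ESCRT-III sealing of the envelope (-0.85, adjusted p = 1.9e-07, chromosome 14 at -0.47), and in *KD1* it was *Vps4a*, the ATPase that takes ESCRT-III apart (-0.52, adjusted p = 2.2e-06, chromosome 8 at -0.27). The highest in *KD1* was *Ppp2ca*, the catalytic subunit of a phosphatase that acts on mitotic exit (0.44, adjusted p = 9.2e-06). Of 18 proliferation genes, 9 rose and 3 fell in *KD1* (median 0.12), and 5 rose and 4 fell in *KD2* (median 0.03). The number passing was above the share of all genes in *KD1* (56.9%) and below it in *KD2* (67.2%). With library size alone 8 rose and 4 fell in *KD2*, where 67.1% of all genes passed. Relative to chromosome medians 6 rose and 0 fell in *KD1*, and 2 rose and 7 fell in *KD2*, where 55.4% and 64.7% of all tested genes passed. In *KD1* 1 fell without *WT* replicate 2 or 3 or *KD1* replicate 1 or 3. *Mcm4* was the highest in *KD1* (0.69, adjusted p = 3.3e-07) and *Mcm5* the lowest (-0.27, adjusted p = 0.002, chromosome 8 at -0.27), both subunits of the replicative helicase. *Cenpf*, a kinetochore protein of G2 and mitosis, was the highest in *KD2* (0.66, adjusted p = 1.6e-05) and the helicase gene *Mcm7* the lowest (-0.52, adjusted p = 4.3e-06).

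**Figure D4:**
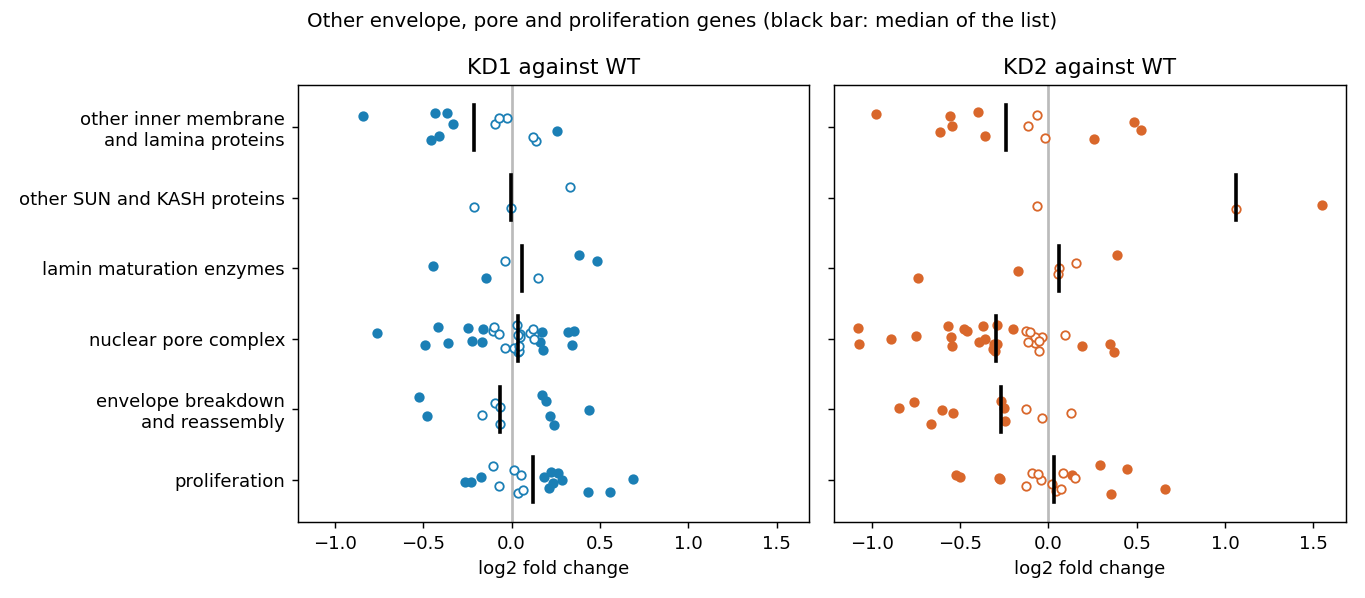
log2 fold change (x axis) of each tested gene of 6 lists against *WT*, *KD1* on the left and *KD2* on the right, filled circles for adjusted p under 0.05 and a black bar for the median of the list. Pore genes centre at 0.04 in *KD1* and at -0.3 in *KD2*, and the 11 breakdown and reassembly genes at -0.07 and -0.27.

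The genes most like *Lmna* in log2 CPM over the 9 cultures, among 9572 genes, were *Mif4gd* (Pearson r = 0.973), *Upf1* (0.972) and *Srebf1* (0.955). Those most like *Lmnb1* were *Wnt10a* (0.989), *Abhd8* (0.988) and *Ephb3* (0.987). *Wnt10a*, a WNT ligand gene, was at 19.1 CPM in *WT*, with *KD1* at 12.7 and *KD2* at 28.6 CPM, and the ephrin receptor gene *Ephb3* at 61.2, 47.6 and 80.5 CPM, the same order of the lines as *Lmnb1* with larger steps. *Srebf1*, a lipid synthesis factor, stayed near 204.1, 197.1 and 186 CPM. These correlations describe 9 cultures that share their lines and libraries. The genes were picked by their correlation over the same cultures, so a shared order of the lines follows from the choice and is no further support.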

How the data were processed

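RNA was measured in 9 HC11 cultures, 3 each of *WT*, *KD1* and *KD2*, grouped by sample title, and 0 columns were left without a culture. What the authors deposited are raw counts, in whole numbers and not normalized, for each gene. Per the methods, libraries came from 1 µg of poly-A-selected RNA, read in pairs for 50 cycles. The authors used fastp for trimming and a mean quality minimum of 20, HISAT2 for mapping to GRCm38, and featureCounts to count over exons, gene by gene. Whether counting used strand, and tool versions, are not given in the sources used here. The authors tested with DESeq2 and a 2-fold limit. Labels and methods differ on whether lysates were flash frozen.

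Here the counts were fitted with edgeR 4.0.16 in R 4.3.3, with TMM scaling, its expression filter and 1 quasi-likelihood fit of 9 cultures, and p-values were adjusted over 15253 genes. CPM are scaled by TMM, values are mean ± SD and fold changes ± SE. No source says that replicates were separate passages, so p-values measure the spread between these cultures, which may be technical. Reads without molecular identifiers are not independent molecules. Positions, exon lengths and overlaps came from a GENCODE release on GRCm38 other than the one the authors used, matching 53569 of 55228 names. Between the *KD1* cultures the chi-square per degree of freedom was 1.541, 1.372 and 1.81, below the values between *WT* cultures (3.38 to 13.12). No limit was set for calling a pair 1 library. Scripts were tested on simulated counts with the same spread for every gene and no outlying culture, which are cleaner than these data.

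The genes, lists and tests were chosen with earlier results of these data known. The 10 genes are all named. From each list the highest and lowest passing gene in each line is named, and for *Lmna* and *Lmnb1* the 3 most correlated genes. Alternatives were DESeq2 1.42.0, other scalings and filters, 6 cultures per fit, a 2-fold limit, chromosome medians of each line against *WT* taken out, a replicate block, 9 fits leaving out 1 culture each and, for ratios, the longest transcript in place of all exons.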

Additional observations from a re-analysis of the deposited data

Results flagged for a closer look

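For 6 of the 10 genes the change against *WT* differed between the *KD* lines by the direct test of *KD2* against *KD1* in edgeR. The difference on the log2 scale was 1.13 for *Sun2* (adjusted p = 3.5e-09), 0.39 for *Syne2* (adjusted p = 0.00062) and 0.35 for *Lmnb1* (adjusted p = 1e-04), each higher in *KD2*. It was -0.55 for *Emd* (adjusted p = 5.5e-06), -0.31 for *Syne1* (adjusted p = 0.0026) and -0.29 for *Sun1* (adjusted p = 0.00014), each lower in *KD2*. The 3 cultures of *KD2* did not overlap those of *KD1* for any of the 6 (71.6% of all tested genes). Since the 6 were picked by the test on these cultures, that is no further support. Among all tested genes 67.8% passed this test. Groups of 3 cultures are too small to look for outlying cultures by the gap of a single value.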

How the results depend on the processing

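For the 30 log2 fold changes of the 10 genes, 510 values were computed over 17 alternatives, of which 467 kept their direction and their side of the threshold, 22 no longer passed, 10 newly passed and 11 changed sign. Relative to the chromosome median, signs changed for *Emd* (0.043 in *KD1*, 0.025 in *KD2*), *Lmnb1* in *KD2* (-0.073) and, between the lines, *Lbr* (-0.052) and *Lmna* (0.0005). Between the lines, library size alone turned *Lmna* (0.10), *Lmnb2* (0.016) and *Tmpo* (0.023), and *Lmna* also turned with at least 10 counts in every culture (0.0083) and without the first (0.0042) or second (0.045) *KD2* culture, where leaving out 1 culture gave -0.13 to 0.045. None of these 11 passed the test. Passing genes numbered 5 in *KD2* against *WT*, with 0 rising, and 3 between the lines, with 1 falling, relative to chromosome medians. With a 2-fold limit 1 passed in *KD1* (1 fell), 0 in *KD2* (0 rose, 0 fell) and 1 between the lines (1 rose, 0 fell). In *KD2* 1 rose with no filter and with 6 cultures. Leaving out 1 culture at a time, 5 to 7 fell in *KD1*, 1 to 2 rose and 6 to 7 fell in *KD2* (7 to 9 in all), and 3 to 4 rose and 3 to 5 fell between the lines (6 to 9 in all). In these fits 49.2 to 64.6% of all genes passed in *KD1*, 61.7 to 71.2% in *KD2* and 61.6 to 72% between the lines. Using the longest transcript moved the mean ratios, to 1.18 in *WT*, 2.32 in *KD1* and 0.90 in *KD2* for *Sun1* to *Sun2*, for example, while the length cancels from differences between groups for ratios of single genes. The order of levels by longest transcript was added after the data were seen.

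Same-numbered cultures did not deviate together (correlations from -0.065 to 0.079), so the numbers were not taken to pair them. With the number as a replicate block, 7 of the 10 fell in *KD1*, 2 rose and 6 fell in *KD2*, and 3 rose and 3 fell between the lines, and no call of the 30 changed. In that setting 56.6% of all genes passed in *KD1*, 67.1% in *KD2* and 67.6% between the lines. Not every culture correlated best with its own number, since the first *WT* culture did so with the second *KD2* culture (0.107). Depth limits little here, since 3 counts correspond to at most 0.1537 CPM and the lowest of the 10 genes was far above it.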
